A study of Homo sapiens with 12 samples.

Results

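The genes described here are 46 genes of ribosome biogenesis and RNA polymerase I, chosen by name and all present among the 11548 genes of the deposited table. They were 5 subunits of RNA polymerase I, 5 nucleolar transcription and scaffold proteins, 4 core proteins of the small nucleolar RNPs, 10 members of the small subunit processome, 4 late factors of the small subunit, 17 factors of the large subunit and 1 subunit of the RNA exosome. Their mRNAs were measured by stranded polyA+ RNA-seq in 3 human HCC cell lines, Hep3B, MHCC97H and Huh7, all labelled wild type. Each line was left untreated or was given AZD8055 (100 nM), an ATP-competitive inhibitor of the mTOR kinase in both of its complexes, compound #57, an inhibitor of the phosphatase SHP2, or the combination, which held compound #57 at 5 μM. The dose of compound #57 alone is not given in the sources used here. Hep3B and Huh7 were exposed for 48 h but MHCC97H for 24 h, which ties the length of exposure to the line. Each of the 12 conditions was sequenced as 1 library, and the 3 cell lines take the place of replicates, since nothing says that the libraries came from separate cultures.

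Ribosomes are built in the nucleolus, where RNA polymerase I transcribes the long precursor of the ribosomal RNAs. Small nucleolar RNPs modify this precursor, and the small subunit processome and a separate set of large subunit factors fold and cut it. Late factors and the exosome act in the steps that finish the particles. mTOR and the RAS-MAPK pathway, which lies downstream of SHP2, are both known to promote this process in growing cells, in part through MYC, which binds E-boxes in the promoters of many of these genes.

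The libraries held between 10659952 and 15957252 reads, of which the table covered between 98.63% and 99.26%. Levels are given as scaled reads, the reads of a gene per 10000000 reads of its library, and changes as log2-fold changes between libraries of the same cell line. The median change of all 11548 genes lay between -0.016 and 0.089 in the 9 comparisons with untreated cells, and centring of the libraries moved it by up to 0.109. All 11 hepatocyte marker genes were in the table, with at least 10 reads for each in Hep3B and Huh7 and for 9 or 10 of them in MHCC97H. Their summed level was between 255444 and 638521 scaled reads in Hep3B, between 391443 and 548691 in Huh7 and between 52615 and 61412 in MHCC97H, which was thus low in the markers of its labelled origin. Of 6 leukocyte markers the table held 1, LYZ, with 0.8 to 4.9 scaled reads in MHCC97H, 31.6 to 1141 in Hep3B and 523 to 7518 in Huh7, and of 6 fibroblast markers it held 4, which summed to between 248 and 2134 scaled reads.

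To describe the promoters of these genes, the RefSeq promoter windows (GRCh38.p14, 250 bases before to 50 bases after the start) were searched for the E-box CACGTG and for CTCGCGAG. Both motifs read the same on either strand and do not overlap one another. Windows were found for 36 of the 46 genes, with 43 windows in all, and the other 10 (BOP1, DDX18, MPHOSPH10, NOLC1, NOP58, POLR1E, RRP12, RRP1B, TCOF1 and URB2) were not matched. CACGTG stood in the windows of 15 genes, or 34.88% of the 43 windows, against 9.46% of the 12840 windows of genes in the table and 7.26% of all 35116 windows. It lay in the 50 bases after the start in 13 of these 15 windows (86.7%), against 11.6% of the 1215 windows of table genes that held it. CTCGCGAG stood in the windows of 3 genes (6.98% of the 43 windows, against 1.92% of the windows of table genes and 1.02% of all windows). Of the 36 genes with windows, 19 held neither motif. The following stretches, 1 or more from each role, are given on the strand of the gene with the motif in capitals, because genes of every role but the polymerase subunits hold the E-box. They are listed as MYBBP1A (chr17:4555340-4555369, minus strand), FBL (chr19:39846356-39846385, minus), WDR43 (chr2:28894658-28894687, plus), UTP20 (chr12:101280083-101280112, plus), LTV1 (chr6:143843354-143843383, plus), NOP2 (chr12:6568242-6568268, minus), GNL3 (chr3:52686026-52686055, plus) and EXOSC5 (chr19:41397328-41397357, minus), followed by POLR1B (chr2:112541957-112541988, plus) and NPM1 (chr5:171387790-171387821, plus) for CTCGCGAG.
MYBBP1A: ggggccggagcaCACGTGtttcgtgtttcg
FBL: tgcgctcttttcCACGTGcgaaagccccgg
WDR43: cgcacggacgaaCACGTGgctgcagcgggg
UTP20: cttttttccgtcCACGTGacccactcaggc
LTV1: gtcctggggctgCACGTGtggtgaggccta
NOP2: aggtccggattgCACGTGgagggccgc
GNL3: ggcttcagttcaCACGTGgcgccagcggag
EXOSC5: caactgcagccgCACGTGggctcggcgcga
POLR1B: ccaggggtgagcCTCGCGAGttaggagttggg
NPM1: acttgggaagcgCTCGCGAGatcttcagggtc
The E-box began 28 bases after the start in MYBBP1A, 7 in FBL, 4 in WDR43, 29 in LTV1, 36 in NOP2, 7 in GNL3 and 15 in EXOSC5, and 10 bases before the start in UTP20. EXOSC5 held a further CACGTG, not listed above, which began 89 bases before the start. A match is a description of these letters and not evidence of binding.

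In untreated cells the 46 genes took 0.769% (Hep3B), 0.778% (MHCC97H) and 0.718% (Huh7) of the reads. With the combination this share was 0.417%, 0.427% and 0.472% in the same order. It was 0.621%, 0.500% and 0.526% with AZD8055, and 0.390%, 0.685% and 0.459% with compound #57. The share was thus lower in every treated library than in the untreated library of its line, and in MHCC97H compound #57 stood apart, with a share between those of untreated cells and of the other treatments. NCL and NPM1 made up much of these sums, and in Huh7 NPM1 set the order of compound #57 and the combination. NPM1 had 8174 and 13447 scaled reads there, while NCL went the other way, with 9687 and 8652. With both genes the sums in Huh7 were 45876 scaled reads with compound #57 and 47228 with the combination. Without both they were 28015 and 25129. As these are bulk libraries, fewer cells of a kind and less RNA per cell cannot be told apart. Per kilobase of the canonical transcript, NPM1, a histone chaperone of the granular nucleolus, had the highest mean level in untreated cells, 8119 scaled reads per kb. It was followed by NCL, the nucleolar RNA-binding protein nucleolin, with 3914, by NOP56 with 2151 and by FBL with 1869, while PPAN was lowest with 20.5.

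AZD8055 was compared with untreated cells to see how blocking mTOR alone moved these mRNAs. Of the 46 genes, 39 were lower with AZD8055 in all 3 cell lines, against 25.7% of all genes. The median of their changes was -0.30 (Hep3B), -0.53 (MHCC97H) and -0.50 (Huh7) on the log2 scale. Few changes were large, as 0, 2 and 1 genes were at least 2-fold lower in these lines, where 0.823%, 3.07% and 2.52% of all genes were. In the limma fit with cell line as block, 1 of the 46 genes was called lower, against 0.753% of all genes, and 23 were lower and 1 higher at an unadjusted p under 0.05, where 12.2% and 15.2% of all genes were.

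That gene was MPHOSPH10 (ENSG00000124383.11, hg38 chr2:71130310-71150101, plus strand), a structural protein of the U3 snoRNP in the small subunit processome. It had 1399.6, 805 and 2234 scaled reads in untreated Hep3B, MHCC97H and Huh7 cells and 960.3, 527 and 1153 with AZD8055. With compound #57 it had 1128, 703 and 1993, and with the combination 818.5, 516 and 1244.5. Huh7 had the highest level in each treatment and MHCC97H the lowest, so the treatments overlapped across lines, while within each line both libraries with AZD8055 were the lowest. It fell with AZD8055 (log2-fold change -0.70 ± 0.12 SE, limma, adjusted p = 0.0316) and with the combination (log2-fold change -0.75 ± 0.12 SE, adjusted p = 0.00335), and it was the 1 gene of the 46 that limma called lower in the combination than with compound #57 (log2-fold change -0.53 ± 0.12 SE, adjusted p = 0.0428), where 1.57% of all genes were lower. Without any 1 of the cell lines, MPHOSPH10 was no longer called with AZD8055, nor was any other of the 46 genes.

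Ranked by their smallest decrease over the 3 lines, the other leading genes with AZD8055 were LTV1, an export adaptor of the small subunit, and POLR1B (ENSG00000125630.16, hg38 chr2:112541915-112579818, plus strand), the second largest subunit of RNA polymerase I. LTV1 had 356.5, 373 and 453 scaled reads in untreated Hep3B, MHCC97H and Huh7 cells and 244, 195 and 212 with AZD8055, with no overlap between both groups. Its log2-fold changes were -0.55, -0.93 and -1.09, but limma did not call it (adjusted p = 0.0561). Of the exonic bases of LTV1, 34.7% are shared with other annotated genes on the same strand, so its reads are uncertain.

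**Figure D1:**
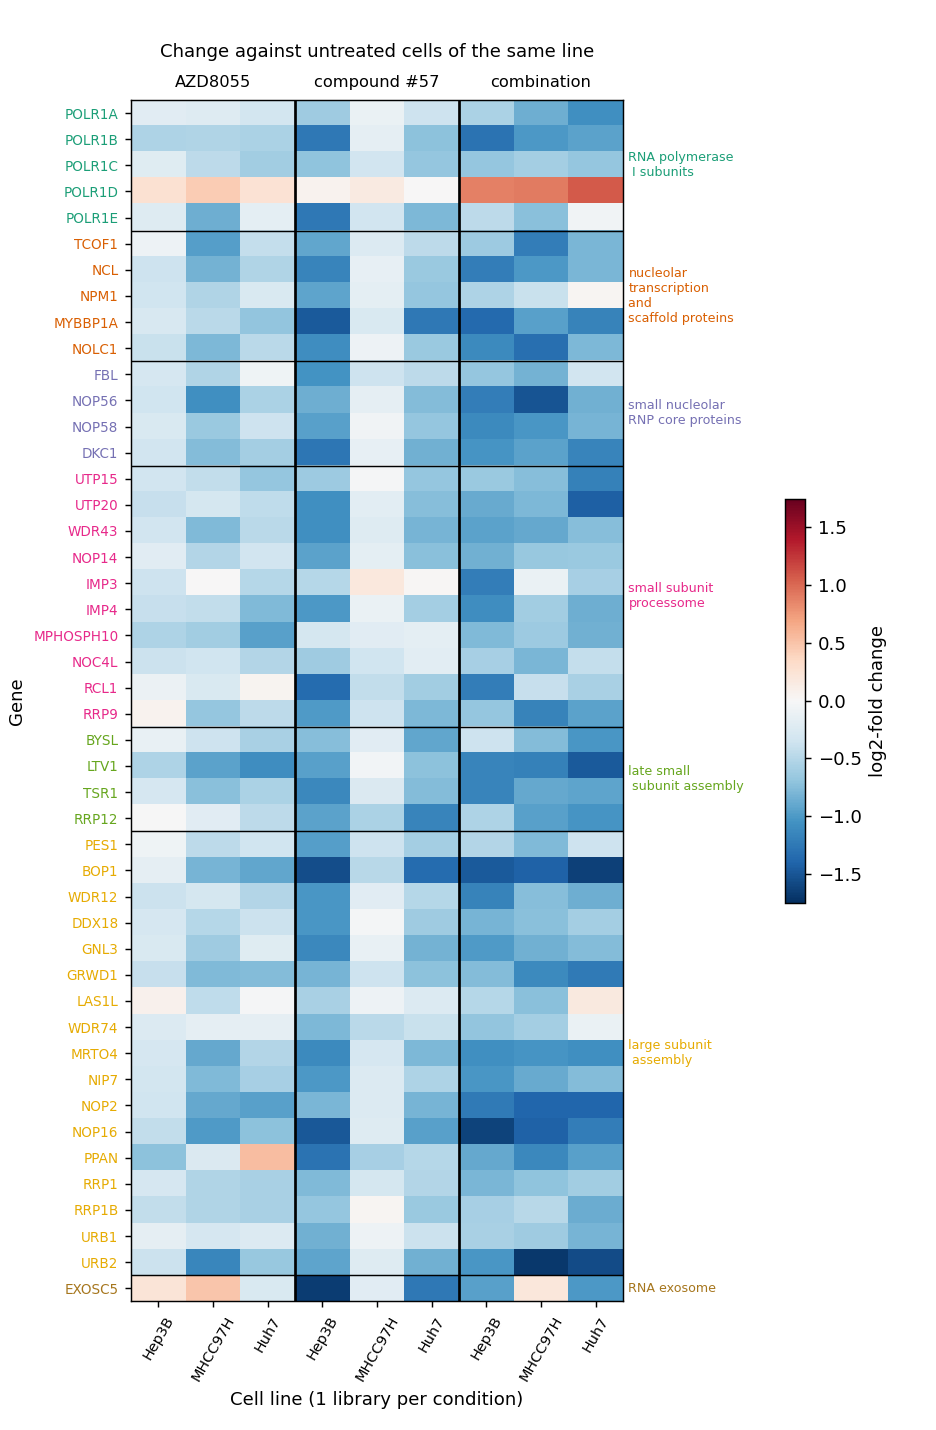
log2-fold change of the 46 genes (rows, grouped by role) against untreated cells of the same line, for AZD8055, compound #57 and the combination in Hep3B, MHCC97H and Huh7 (columns), with 1 library per condition. Blue is lower and red is higher than untreated. Most cells are blue, the columns of compound #57 in MHCC97H and AZD8055 in Hep3B are pale, and POLR1D is red in every column with AZD8055 or the combination.

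Compound #57 was compared with untreated cells to see how blocking SHP2 alone moved these mRNAs. Of the 46 genes, 43 were lower in all 3 cell lines, against 19.7% of all genes. The size differed between the lines, with medians of -0.96 (Hep3B), -0.67 (Huh7) and -0.20 (MHCC97H) on the log2 scale. In Hep3B 21 genes were at least 2-fold lower, where 3.75% of all genes were, in Huh7 4 (1.52% of all genes) and in MHCC97H 0 (0.84%). Over the 3 lines limma called 0 of the 46 genes, against 0.0% of all genes lower, with 42 genes lower at an unadjusted p under 0.05, where 8.1% of all genes were, and a smallest adjusted p of 0.0912. limma-voom on the whole reads called 1 lower, against 0.165% of all genes. Without MHCC97H, limma called 28 of the 46 genes lower, against 2.69% of all genes. The summed level of the hepatocyte markers was higher with compound #57 than in untreated cells in Hep3B (638521 against 386894 scaled reads) and in Huh7 (548691 against 461961), and was 55375 against 52615 in MHCC97H, and its part in these changes was not tested.

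The response of MHCC97H to each treatment was set against that of both other lines in a further limma fit, chosen after the values were seen. For compound #57, the 46 genes had a median difference of 0.63 on the log2 scale (MHCC97H minus the mean of the others), against 0.093 for all genes. Of them 15 had an unadjusted p under 0.05, all 15 with the less negative change in MHCC97H, where 4.33% of all genes had such a p in that direction, but 0 had an adjusted p under 0.05 by limma (smallest 0.488), against 0.0% of all genes. For AZD8055 the median difference was -0.21, with 0 genes called against 0.0173% of all genes, and for the combination it was -0.002, with 0 called against 0.944%. At an unadjusted p under 0.05 there were 0 and 1 of the 46 genes in these comparisons, the latter higher, where 9.51% of all genes were.

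RRP12, a factor of pre-ribosome export, had the largest smallest decrease over the 3 lines with compound #57, ahead of PPAN and BOP1. It had 791, 661 and 772 scaled reads in untreated Hep3B, MHCC97H and Huh7 cells, 414, 449 and 345 with compound #57, 788.5, 575 and 562 with AZD8055 and 543, 339.8 and 379 with the combination. All 3 libraries with compound #57 lay below all 3 untreated libraries, while with AZD8055 the level in Hep3B was close to that of untreated cells. The log2-fold changes with compound #57 were -0.93, -0.56 and -1.16 (limma, log2-fold change -0.88 ± 0.16 SE, adjusted p = 0.0912).

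EXOSC5, a subunit of the RNA exosome, which trims the ends of ribosomal RNA precursors, had the largest decrease of the 46 genes in Hep3B with compound #57. Its levels were 229, 293 and 207 scaled reads in untreated Hep3B, MHCC97H and Huh7 cells, 267, 408.5 and 173 with AZD8055, 71.7, 255.5 and 86.3 with compound #57 and 117.5, 336 and 103 with the combination. It was low in Hep3B and Huh7 in both treatments that held compound #57, whereas in MHCC97H all 4 libraries lay between 255.5 and 408.5 scaled reads. Its log2-fold change with compound #57 was -1.66 in Hep3B (95% interval of counting error, -2.01 to -1.35), -1.25 in Huh7 and -0.20 in MHCC97H (limma, adjusted p = 0.105).

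The combination was compared with untreated cells, and here the 46 genes were lower in each line by a like amount. The medians were -0.89 (Hep3B), -0.84 (MHCC97H) and -0.84 (Huh7) on the log2 scale. At least 2-fold lower were 19, 13 and 14 genes, where 6.0%, 4.72% and 6.46% of all genes were. In all 3 lines 42 genes were lower, against 25.6% of all genes. Over the 3 lines, limma called 41 of the 46 genes (89.1%) lower, against 15.1% of all genes, and POLR1D higher, where 20.9% of all genes were called higher. The exceptions were POLR1E, NPM1, LAS1L and EXOSC5. Without Huh7, limma called 0 of the 46 genes, and 0 of all 11548 genes lower, with a smallest adjusted p of 0.0617 among the 46. The changes themselves were of like size without it, with a median of -0.84 against -0.86 with all lines, 45 of 46 estimates below 0 and 40 lower at an unadjusted p under 0.05, where 12% of all genes were. Without MHCC97H 38 genes were called lower, against 14.8% of all genes, and without Hep3B 28, against 6.64%.

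**Figure D2:**
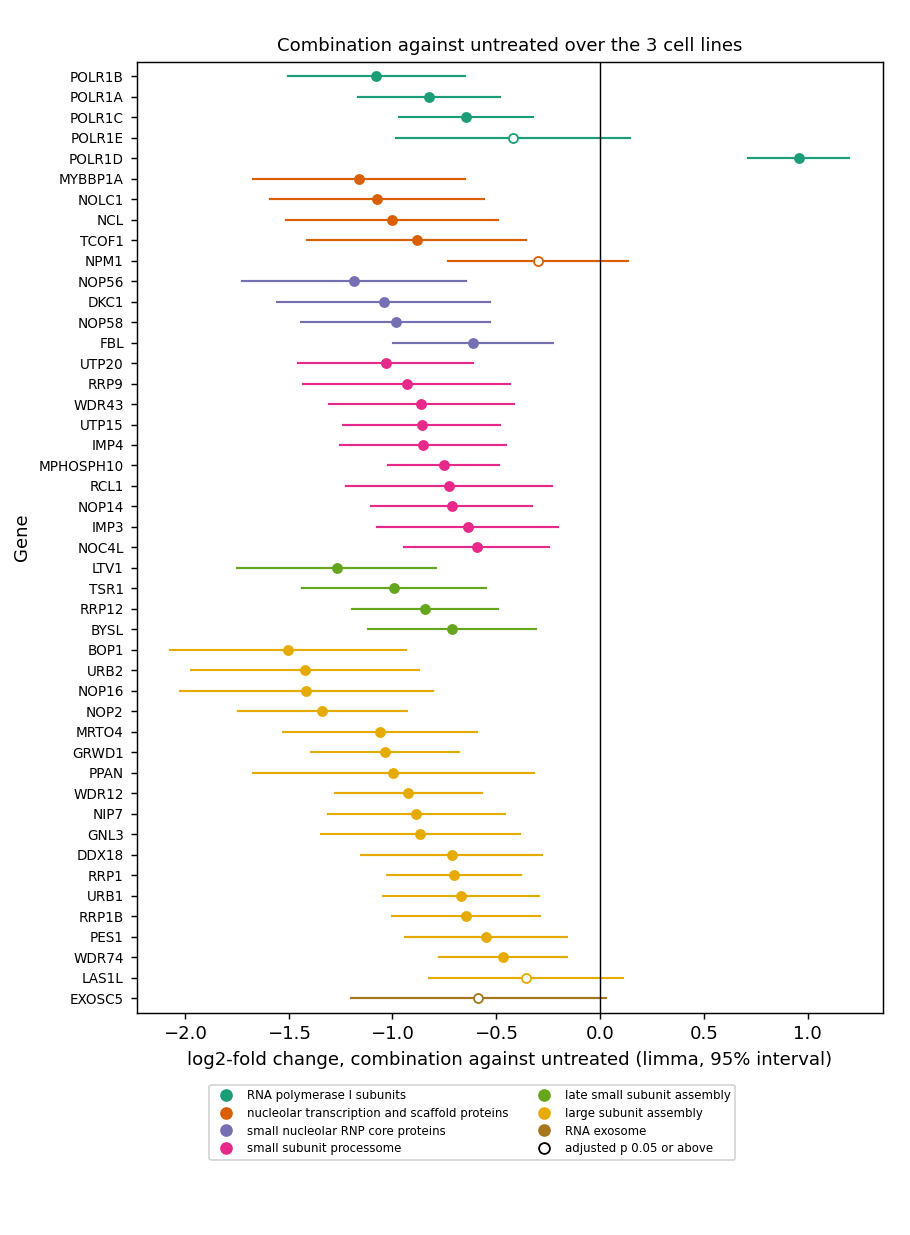
log2-fold change of each of the 46 genes with the combination against untreated cells (horizontal axis), as fitted by limma over the 3 cell lines, with its 95% interval. Colours mark the role and open circles the genes with an adjusted p of 0.05 or above. All estimates but that of POLR1D (0.95) lie below 0, from -1.50 for BOP1 to -0.30 for NPM1.

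Among the 5 subunits of RNA polymerase I, POLR1A, POLR1B and POLR1C fell with the combination, POLR1D rose and POLR1E was not called. POLR1A, the largest, catalytic subunit, had 1891, 1966 and 1725 scaled reads in untreated Hep3B, MHCC97H and Huh7 cells, 1646, 1679 and 1381 with AZD8055, 1225, 1809.6 and 1341 with compound #57 and 1288, 1087 and 821 with the combination. POLR1B had 1122, 1047 and 750.1 in untreated cells, 769.7, 728 and 509 with AZD8055, 471, 936 and 454 with compound #57 and 457, 523.5 and 389.9 with the combination. For both genes, no library of the combination reached any untreated library. POLR1A fell with the combination (log2-fold change -0.83 ± 0.15 SE, limma, adjusted p = 0.00496), as did POLR1B (log2-fold change -1.08 ± 0.19 SE, adjusted p = 0.00439). With AZD8055 alone the log2-fold changes of POLR1B were nearly equal in the 3 lines, at -0.54, -0.52 and -0.56 in Hep3B, MHCC97H and Huh7 (limma, adjusted p = 0.11).

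POLR1C, which RNA polymerases I and III share, had 295.5, 448 and 239 scaled reads in untreated Hep3B, MHCC97H and Huh7 cells, 255, 326 and 157 with AZD8055, 181, 356.5 and 149.8 with compound #57 and 185, 297 and 149.8 with the combination. In Huh7 all 3 treated libraries were at a like level, below the untreated library. POLR1C fell with the combination (log2-fold change -0.65 ± 0.14 SE, limma, adjusted p = 0.00972). POLR1E, a subunit that acts in the initiation of RNA polymerase I, had 339.6, 1087 and 712 scaled reads in untreated cells, 290.4, 602 and 632.5 with AZD8055, 141.5, 865 and 412 with compound #57 and 246, 653 and 681 with the combination. In Huh7 the combination was close to untreated cells, and in Hep3B and Huh7 compound #57 alone gave the lowest level. limma did not call POLR1E with the combination (log2-fold change -0.42 ± 0.25 SE, adjusted p = 0.211).

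POLR1D (ENSG00000186184.20, hg38 chr13:27620742-27744237, plus strand), the partner of POLR1C in both polymerases, went the other way. Its levels were 614, 283.5 and 466 scaled reads in untreated Hep3B, MHCC97H and Huh7 cells, 739, 385 and 556 with AZD8055, 641, 317 and 469 with compound #57 and 1135, 532 and 983 with the combination. Within every line the untreated library was the lowest and that of the combination the highest, though the untreated Hep3B library lay above the MHCC97H library of the combination. The log2-fold changes with the combination were 0.89, 0.91 and 1.07, and those with AZD8055 were 0.27, 0.44 and 0.25. POLR1D rose with the combination against untreated cells (log2-fold change 0.95 ± 0.11 SE, limma, adjusted p = 0.00169) and against compound #57 (log2-fold change 0.88 ± 0.11 SE, adjusted p = 0.0124), where 2.62% of all genes were called higher. With AZD8055 (adjusted p = 0.102) and in the combination against AZD8055 (adjusted p = 0.145) limma did not call it. The values are per gene, so the transcripts of POLR1D were not told apart.

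Of the nucleolar transcription and scaffold proteins, 4 of 5 fell with the combination in limma, where 15.1% of all genes were called lower. The medians of all 5 were -1.12 (Hep3B), -0.999 (MHCC97H) and -0.81 (Huh7). NCL had 16603, 14345 and 15127 scaled reads in untreated Hep3B, MHCC97H and Huh7 cells, 12913.5, 8109.5 and 10464 with AZD8055, 7475, 12952 and 9687 with compound #57 and 7199, 7177 and 8652 with the combination. Its levels with the combination were all below those of untreated cells (log2-fold change -1.003 ± 0.23 SE, limma, adjusted p = 0.0104). MYBBP1A, a nucleolar regulator of transcription (log2-fold change -1.16 ± 0.23 SE, limma adjusted p = 0.00614), NOLC1, a chaperone of small nucleolar RNPs (log2-fold change -1.07 ± 0.23 SE, adjusted p = 0.00852), and TCOF1, the nucleolar phosphoprotein treacle (log2-fold change -0.88 ± 0.24 SE, adjusted p = 0.0184), fell as well.

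NPM1 was the exception. It had 10811, 8267 and 13074 scaled reads in untreated Hep3B, MHCC97H and Huh7 cells, 8461, 5714 and 10887 with AZD8055, 5704, 7347 and 8174 with compound #57 and 7426, 6297 and 13447 with the combination. In Hep3B and Huh7 the level with the combination was above that with compound #57 alone, and in Huh7 it was at the level of untreated cells. With the combination the log2-fold changes were -0.54, -0.39 and 0.041 (limma, adjusted p = 0.249).

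All 4 core proteins of the small nucleolar RNPs, which guide methylation and pseudouridylation of ribosomal RNA, fell with the combination in limma. Of all genes, 15.1% were called lower. NOP56 had 4007.5, 3959.7 and 4375 scaled reads in untreated Hep3B, MHCC97H and Huh7 cells, 3158, 1877 and 2976.5 with AZD8055, 2211, 3538.5 and 2597 with compound #57 and 1731, 1396 and 2436.5 with the combination. The untreated levels were alike in the 3 lines, and the libraries of the combination lay below all of them (log2-fold change -1.19 ± 0.24 SE, limma, adjusted p = 0.0068). In MHCC97H the level with compound #57 alone stayed within 10.6% of that of untreated cells, and that with the combination was 64.7% lower. For NOP58 (adjusted p = 0.0073), the pseudouridine synthase DKC1 (adjusted p = 0.00916) and the methyltransferase FBL (adjusted p = 0.0224), the log2-fold changes in limma were -0.98, -1.04 and -0.61.

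The 10 genes of the small subunit processome, which makes the first cuts of the precursor, also fell with the combination. All 10 of 10 were called lower by limma, against 15.1% of all genes, with log2-fold changes between -1.03 for UTP20 and -0.59 for NOC4L. Their medians were -0.86 (Hep3B), -0.70 (MHCC97H) and -0.79 (Huh7). UTP20, a large scaffold of the processome, had 1054, 1510.4 and 1998 scaled reads in untreated Hep3B, MHCC97H and Huh7 cells, 797, 1221 and 1463 with AZD8055, 498, 1331 and 1187 with compound #57 and 572, 879.5 and 738 with the combination. Its level in Huh7 went from the highest of the untreated libraries to one between those of the other lines with the combination.

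Of the late factors of the small subunit, all 4 fell with the combination in limma, where 15.1% of all genes were called lower. LTV1 had 183, 361 and 276 scaled reads with compound #57 in Hep3B, MHCC97H and Huh7 and 159.6, 164 and 163 with the combination. The levels with the combination were nearly equal in the 3 lines and below every untreated library (log2-fold change -1.27 ± 0.21 SE, limma, adjusted p = 0.00384). TSR1, a GTPase-like factor of the pre-40S particle (log2-fold change -0.99 ± 0.20 SE, limma adjusted p = 0.00636), RRP12 (log2-fold change -0.84 ± 0.16 SE, adjusted p = 0.00508) and BYSL, bystin (log2-fold change -0.71 ± 0.18 SE, adjusted p = 0.0152), fell too. Of the exonic bases of TSR1, 27% lie opposite another gene, and whether the counting used the strand is not given in the sources used here.

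The large subunit factors held the 4 largest decreases in limma, and 16 of 17 fell with the combination, where 15.1% of all genes were called lower. BOP1, which forms a complex with PES1 and WDR12 in the maturation of the large subunit RNAs, had 1087, 1712.5 and 627 scaled reads in untreated Hep3B, MHCC97H and Huh7 cells, 973, 970.1 and 334 with AZD8055, 371, 1224 and 245 with compound #57 and 392, 644 and 202 with the combination. Within each line the combination brought BOP1 to between 62.4% and 67.7% below the untreated library, although the highest level of the combination, in MHCC97H, lay just above that of untreated Huh7 cells (log2-fold change -1.50 ± 0.25 SE, limma, adjusted p = 0.00384). Its partner WDR12 had a log2-fold change of -0.92 in limma (adjusted p = 0.00392) and PES1 one of -0.55 (adjusted p = 0.0343).

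NOP2 (ENSG00000111641.13, hg38 chr12:6556863-6568691, minus strand), a methyltransferase of the large ribosomal RNA, had 1442, 2282 and 1083.5 scaled reads in untreated Hep3B, MHCC97H and Huh7 cells, 1136, 1223.5 and 561 with AZD8055, 825, 1932 and 615 with compound #57 and 613, 868 and 414 with the combination. All libraries of the combination lay below all untreated libraries, and NOP2 fell, with levels lower by 57.5% (Hep3B), 61.9% (MHCC97H) and 61.7% (Huh7) (log2-fold change -1.34 ± 0.18 SE, limma, adjusted p = 0.00257). Of its exonic bases 96.2% are shared with another annotated gene on the same strand, so its reads are uncertain. NOP16 had 369.6, 503 and 367 scaled reads in untreated cells, 275, 253 and 224 with AZD8055, 132, 429 and 189 with compound #57 and 119.9, 188 and 157.5 with the combination, again with no overlap between untreated cells and the combination (log2-fold change -1.42 ± 0.27 SE, limma adjusted p = 0.00567). Of its exonic bases 24.4% lie opposite another gene.

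URB2 had 784, 709 and 502 scaled reads in untreated Hep3B, MHCC97H and Huh7 cells, 603, 321 and 316 with AZD8055, 412, 608 and 281 with compound #57 and 388, 220.1 and 169 with the combination. The libraries of the combination were the lowest in each line and below all untreated libraries (log2-fold change -1.42 ± 0.25 SE, limma, adjusted p = 0.0041). DDX18, an RNA helicase with the highest mean log2 value of this role, fell with the combination (log2-fold change -0.71 ± 0.20 SE, limma adjusted p = 0.0197), with log2-fold changes of -0.81, -0.74 and -0.60 in Hep3B, MHCC97H and Huh7. PPAN had between 16 and 75 reads in the 12 libraries and shares 61.8% of its exonic bases with P2RY11 and a read-through gene, so that its changes (-0.90, -1.13 and -0.95) rest on the fewest reads of the list. LAS1L, a subunit of the complex that cuts the second internal spacer, was the large subunit factor not called (log2-fold changes -0.50, -0.74 and 0.17, limma adjusted p = 0.201).

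The combination was then compared with each drug alone. Against AZD8055, 38 of the 46 genes were lower in all 3 lines, where 16.3% of all genes were, with medians of -0.61 (Hep3B), -0.30 (MHCC97H) and -0.38 (Huh7). At least 2-fold lower were 5, 0 and 1 genes in these lines, against 3.33%, 1.13% and 1.84% of all genes. limma called 0 of the 46 genes in this comparison, against 0.0% of all genes, with 22 lower and 1 higher at an unadjusted p under 0.05, where 5.19% and 9.3% of all genes were, and 0 called by limma-voom. By their smallest decrease over the lines, the leading genes were BOP1 (log2-fold changes -1.31, -0.59 and -0.72 in Hep3B, MHCC97H and Huh7), URB2 (-0.63, -0.54 and -0.90) and RRP12 (-0.54, -0.76 and -0.57), with adjusted p-values in limma of 0.223, 0.268 and 0.188.

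Against compound #57 the lines differed, with medians of 0.077 (Hep3B), -0.64 (MHCC97H) and -0.17 (Huh7). All these comparisons share libraries with those above. In Hep3B 28 of the 46 genes had their lowest level with compound #57 alone and 17 with the combination. In MHCC97H 40 and in Huh7 29 were lowest with the combination. The same counts over all genes are not given here. Set against the sum of both single changes, the change with the combination was smaller in size in Hep3B and Huh7, with a median difference (combination minus sum) of 0.34 and 0.36 on the log2 scale, and close to the sum in MHCC97H, with -0.096. Over all genes these medians were 0.022, 0.001 and -0.043. limma called 0 of the 46 genes in this interaction, against 0.0% of all genes, with 2 higher at an unadjusted p under 0.05 (POLR1D and NPM1), where 0.979% of all genes were, and 0 called by limma-voom. For POLR1D the combination exceeded the sum of both single changes in all 3 lines, but limma did not call it (log2-fold change 0.56 ± 0.15 SE, adjusted p = 1.0).

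The other genes of the process behaved alike in direction, but the cytosolic ribosomal proteins did not with every drug. Of 107 other ribosome biogenesis genes, 85 were lower in all 3 lines with AZD8055, 86 with compound #57 and 86 with the combination, where 25.7%, 19.7% and 25.6% of all genes were. With the combination limma called 67 of them lower, against 15.1% of all genes. Of 79 cytosolic ribosomal protein genes, 8 were lower in all 3 lines with AZD8055 and 45 higher, where 28.4% of all genes were higher. With compound #57, in contrast, 71 were lower and 0 higher, where 30.6% of all genes were higher. With the combination 7 were lower and 43 higher in all 3 lines, where 33.4% of all genes were higher, and limma called 2 lower and 12 higher (2.53% and 15.2%), against 15.1% and 20.9% of all genes. Their median log2-fold changes with compound #57 were -0.53 (Hep3B), -0.26 (MHCC97H) and -0.27 (Huh7), and with the combination 0.19, 0.036 and 0.26. Of 74 mitochondrial ribosomal protein genes, 54, 35 and 56 were lower in all 3 lines with AZD8055, compound #57 and the combination. In these comparisons 25.7%, 19.7% and 25.6% of all genes were lower. The difference between the lists was not tested.

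**Figure D3:**
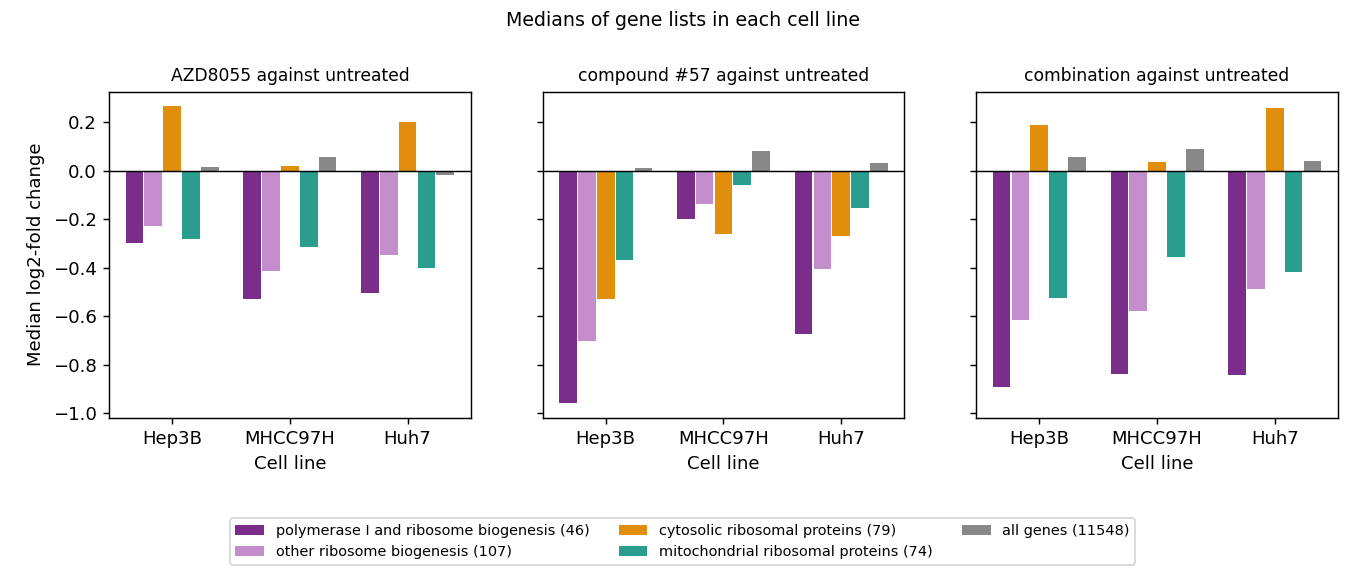
Median log2-fold change against untreated cells (vertical axis) of the 46 genes, 107 other ribosome biogenesis genes, 79 cytosolic and 74 mitochondrial ribosomal protein genes and all 11548 genes, in each cell line and treatment. The 46 genes are below 0 in all 9 groups of bars (-0.20 to -0.96), while the cytosolic ribosomal proteins are below 0 with compound #57 alone.

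MYC and the RNA polymerase I factors RRN3 and UBTF were measured beside them. MYC had 1714, 2077 and 818 scaled reads in untreated Hep3B, MHCC97H and Huh7 cells, 2131, 2307 and 728 with AZD8055, 533, 2077 and 303 with compound #57 and 1129, 1767 and 466.5 with the combination. Compound #57 thus went with a lower MYC level in Hep3B and Huh7 and not in MHCC97H, and the levels with the combination lay between those of compound #57 and untreated cells in Hep3B and Huh7 (combination against untreated, log2-fold change -0.55 ± 0.29 SE, limma, adjusted p = 0.167). In MHCC97H, 43 of the 46 genes were lower with compound #57. With AZD8055, MYC was higher than in untreated cells in Hep3B and MHCC97H and lower in Huh7. Of the 46 genes, 42, 43 and 43 were lower with AZD8055 in these lines. RRN3, which joins RNA polymerase I to its promoter, had log2-fold changes with the combination of 0.023, -0.32 and 0.015 (limma, adjusted p = 0.622). For UBTF, the upstream binding factor of the ribosomal DNA, they were -0.14, -0.093 and 0.059 (limma adjusted p = 0.71). The part of MYC in the levels of the 46 genes was not tested. With compound #57, the 15 genes with CACGTG in their window had median changes of -1.04 (Hep3B), -0.23 (MHCC97H) and -0.79 (Huh7), and the 21 matched genes without it -0.84, -0.17 and -0.54. With AZD8055 these medians were -0.27, -0.51 and -0.46 with the motif and -0.33, -0.46 and -0.53 without it, so that in Hep3B and Huh7 the genes without it were the lower. With the combination they were -0.96, -0.83 and -0.94 with the motif and -0.81, -0.79 and -0.81 without it. The difference between both sets was not tested.

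Between the cell lines, averaged over treatments, MHCC97H had the highest mean level for 26 of the 46 genes, Hep3B for 12 and Huh7 for 8. The same count over all genes is not given here, so it is not read as a trait of these genes. Against Hep3B, limma called 14 genes (30.4%) higher and 3 (6.5%) lower in MHCC97H, where 29.2% and 38.6% of all genes were. Against Huh7 it called 22 higher and 4 lower (33.8% and 36.4% of all genes), and in Hep3B against Huh7 15 higher and 5 lower (30.7% and 24.5%). POLR1E was 1.68 higher on the log2 scale in MHCC97H than in Hep3B (limma, adjusted p = 7.49e-05), while POLR1D was 1.04 lower there (log2-fold change -1.04 ± 0.09 SE, adjusted p = 5.74e-06). BOP1 was 1.74 higher in MHCC97H than in Huh7 (limma adjusted p = 5.45e-05), and MPHOSPH10 was 1.34 lower (adjusted p = 1.56e-06). For these genes the lines differed by as much as or more than untreated cells differed from the combination. These differences between lines hold the length of exposure as well. Each line had 1 library per treatment, so its 4 libraries under different treatments stood in for replicates.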

How the data were processed

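RNA of 12 samples (Hep3B, MHCC97H and Huh7, each untreated, with AZD8055, with compound #57 or with both) was sequenced from TruSeq stranded polyA+ libraries, and per the submitters' processing notes the genome build was hg38. The aligner and the counter are not given in the sources used here. The authors deposited 1 table of log2 values per gene and sample, in which no gene had a mean below 4.65. The values fitted the log2 of a pseudocount of 1 added to the reads per 10000000 of each library, from which whole reads came out for 100.0% of values (tolerance 0.001). Depth was 10659952 to 15957252 reads per library.

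Groups came from the labels, and the pairing came from the cell line itself. Changes within a line are differences of log2 values of 1 library each, with a 95% Clopper-Pearson interval for the ratio of reads that covers counting error only. Over the lines, limma 3.58.1 (R 4.3.3) was fitted to all genes and 12 libraries, with treatment and with cell line as block, and p-values were adjusted by Benjamini-Hochberg over all 11548 genes, with calls at an adjusted p under 0.05. For the treatments, the p-values weigh the mean change over the 3 lines against the spread of the changes between these lines. This spread was shared over all 4 treatments. Between cell lines, the 4 libraries of a line under different treatments stood in for replicates. In the further fit of the MHCC97H response, the spread is that between Hep3B and Huh7. The fit was tested on simulated reads with known changes. The simulation held no differences between cell lines, so it cannot show how well the p-values hold for these data. Intervals came from scipy 1.17.1, plots from matplotlib 3.10.9 and tables from pandas 2.3.3 and numpy 2.4.6 under Python 3.11.15. Gene models were those of GENCODE 44, and promoters those of RefSeq.

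The 46 genes, the other lists and the tests were chosen with earlier results of these data known. By rule, the text named the 5 polymerase subunits, the leading 3 genes per comparison by the smallest change over the lines, called genes, the most abundant gene of a role, MYC, RRN3 and UBTF, and other genes were named for their role. Alternatives were a pseudocount of 10, centring on library medians, a filter on low genes, limma-voom on the whole reads, no block, only the libraries compared, means in place of medians, genes with at least 25 reads, and leaving out each line.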

Additional observations from a re-analysis of the deposited data

Results flagged for a closer look

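With 1 library per condition, 11 pairs of gene and treatment had changes of both signs among the 3 cell lines, and these differences between lines were not tested. In 4 of them the 95% counting intervals lay above 0 in at least 1 line and below 0 in at least 1 other. EXOSC5 had a log2-fold change with AZD8055 of 0.219 (Hep3B), 0.48 (MHCC97H) and -0.261 (Huh7). IMP3, a protein of the U3 snoRNP, had -0.505, 0.181 and 0.014 with compound #57 in the same order of lines. NPM1 had -0.542, -0.393 and 0.041 with the combination. LAS1L had -0.499, -0.736 and 0.166 with the combination. In the other 7 pairs the intervals did not lie on both sides of 0. These were PPAN (-0.713, -0.256 and 0.546), RRP9, RCL1, LAS1L and IMP3 with AZD8055, RRP1B with compound #57 and EXOSC5 with the combination (-0.956, 0.197 and -0.999).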

How the results depend on the processing

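Of the 46 genes, limma called 42 with the combination against untreated cells (36.0% of all genes) and 1 with AZD8055 (2.96%). It called 0 with compound #57 (0.00866%) and 2 in the combination against compound #57 (4.18%). Without the replicate block of cell line, that is, without the pairing, these counts were 0.0 with the combination, 0.0 with AZD8055 and 0.0 in the combination against compound #57, and 0 of all 11548 genes were called in any of them. With the combination 28 genes were then lower and 1 higher at an unadjusted p under 0.05, where 5.68% and 5.3% of all genes were. Leaving out 1 cell line at a time gave 0.0 to 39.0 calls with the combination. There were 0.0 without Huh7, where 0.0953% of all genes were called, and 39.0 without MHCC97H, where 32.7% were. With AZD8055 there were 0.0 to 0.0 calls. Of all genes, 0.0%, 0.00866% and 0.944% were called with AZD8055 without Huh7, Hep3B and MHCC97H. With compound #57 there were 0.0 to 28.0 calls (28.0 without MHCC97H, where 6.74% of all genes were called). In the combination against compound #57 there were 0.0 to 1.0 (1.0 without MHCC97H, where 2.87% were called). With only the libraries compared in the fit, AZD8055 gave 0.0 calls (0.0173% of all genes) and the combination against compound #57 gave 1.0 (2.29%). Centring gave 4.0 calls with AZD8055 (4.1% of all genes), and limma-voom gave 1.0 with compound #57 (0.779%). Centring also moved the split of all genes called, from 1744 lower and 2410 higher to 2229 and 1993 with the combination, and from 87 and 255 to 217 and 256 with AZD8055. The median change with the combination was -0.96 (Hep3B), -0.938 (MHCC97H) and -0.884 (Huh7) after centring, -0.851 in Hep3B with a pseudocount of 10, and -0.797 in Huh7 as a mean. Of the other values recomputed, 2084 kept their sign and their side of the threshold, 121 lost a call and 30 gained one. Another 38 changed sign without a call in either fit, and none changed sign with a call. With 1 library per condition, the depth sets the error within a line, and PPAN, with 16 to 75 reads, was the least precise.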
